A study of Homo sapiens with 3 samples.

Results

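The genes described here are the ZNF genes of human chromosome 19, which encode C2H2 zinc finger proteins, as transcribed in H9 cells. They were chosen by annotation and not by their values: Ensembl identifiers in the counts were joined to GENCODE release 44, and protein-coding genes of chromosome 19 were kept whose symbol was ZNF followed by a number and at most 1 letter. This rule gave 246 genes out of 58051 in the counts and out of 19629 protein-coding genes. H9 is a line of human embryonic stem cells in long use. RNA from 3 replicates of untreated wild-type H9 cells, grown without feeder cells in Essential 8 Flex medium on vitronectin, was depleted of ribosomal RNA and sequenced. The counts of genes summed to 10390984, 12024802 and 8655155 in replicates 1, 2 and 3. There was 1 condition, so the spread between replicates is the only error, no groups were compared, and the labels do not say whether the replicates were separate cultures.

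A C2H2 zinc finger is a short fold held by a zinc ion between a pair of cysteines and a pair of histidines, and fingers in a row read a stretch of DNA. Most ZNF proteins of this chromosome also carry a KRAB box, which binds the corepressor TRIM28 and through it the histone methyltransferase SETDB1 and HP1 proteins, so that silent chromatin forms near the bound site. Many of them bind transposable elements. The genes arose by repeated tandem duplication and lie in clusters, and their family is active in early embryos and in embryonic stem cells. Of the 246 genes, 211 had a KRAB box in the coding sequence read here and 35 had none, and the number of fingers ran from 1 to 36 with a median of 12.

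The result that stands out by position is a run of 9 neighbouring genes in cluster 4, of 37 genes, that lay below 1 TPM, a count per length of exon scaled to the same sum in each library, among neighbours at 7.10 to 78.1 TPM. To show what the low and the transcribed genes of this cluster share, the 250 bases before the RefSeq start (GRCh38.p14) are given for a pair of low genes and for the transcribed genes whose windows were most alike to theirs. They are ZNF208 (0.149 TPM, chr19:22010944-22011193, minus strand), ZNF91 (29.8 TPM, chr19:23395472-23395721, minus strand), ZNF723 (0.0591 TPM, chr19:22832041-22832290, plus strand) and ZNF85 (32.7 TPM, chr19:20923001-20923250, plus strand). All are written 5′ to 3′ along the gene. Capitals mark GTCCAATCAG, the longest run of letters common to the windows of the 4 low genes with a RefSeq window and of the transcribed genes most alike to them. It contains CCAAT, a core letter group of many vertebrate promoters. That comparison took in the windows of ZNF257, ZNF492 and ZNF431, which are not printed. The 4 printed windows alone share longer runs, which are left unmarked.
ZNF208: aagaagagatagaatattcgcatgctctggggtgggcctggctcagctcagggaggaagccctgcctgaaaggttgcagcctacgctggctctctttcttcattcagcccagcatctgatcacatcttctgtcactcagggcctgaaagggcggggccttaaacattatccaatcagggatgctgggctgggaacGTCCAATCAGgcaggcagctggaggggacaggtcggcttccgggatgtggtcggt
ZNF91: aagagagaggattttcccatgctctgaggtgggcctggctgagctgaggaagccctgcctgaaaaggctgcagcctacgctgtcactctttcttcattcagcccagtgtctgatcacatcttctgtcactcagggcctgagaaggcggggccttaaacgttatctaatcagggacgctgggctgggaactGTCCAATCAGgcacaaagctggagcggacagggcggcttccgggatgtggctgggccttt
ZNF723: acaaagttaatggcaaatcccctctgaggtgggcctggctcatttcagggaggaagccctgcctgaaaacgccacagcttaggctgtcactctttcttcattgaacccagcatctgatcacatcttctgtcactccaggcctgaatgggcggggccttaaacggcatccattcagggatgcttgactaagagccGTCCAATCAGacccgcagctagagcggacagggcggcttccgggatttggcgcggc
ZNF85: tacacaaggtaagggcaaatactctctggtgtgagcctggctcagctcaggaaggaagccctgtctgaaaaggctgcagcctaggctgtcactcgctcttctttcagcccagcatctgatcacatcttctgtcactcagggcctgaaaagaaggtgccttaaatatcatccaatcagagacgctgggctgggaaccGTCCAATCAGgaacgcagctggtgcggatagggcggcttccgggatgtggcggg

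The windows of ZNF208 and ZNF91 were identical at 86.4% of aligned positions, gaps counted as differences, and those of ZNF723 and ZNF85 at 80.6%. The other low genes with a window were ZNF257, most alike to ZNF85 at 82.5%, and ZNF492, most alike to ZNF431 at 79.8%. The 4 low windows against the 25 windows of other genes of the cluster gave 100 pairs with a median identity of 77.8%, and the 25 windows among themselves gave 300 pairs with a median of 75.5%. In the printed windows the marked letters ended 44 to 50 bases before the start. Both strands of each window were searched. The marked letters stood in 4 of 4 low windows and in 20 of the other 25 windows of the cluster, these 20 all in forward direction. They stood in 10 of 187 windows of ZNF genes elsewhere on the chromosome, and in 0.370% of all 35116 promoter windows in the table. The letters CG occurred 7 to 13 times in the low windows and 3 to 14 times in the others of the cluster, where a median over all ZNF genes of chromosome 19 was 16. The marked letters were picked as common to low and transcribed windows, so their presence could not separate the 2 kinds. The number of CG overlapped between the low windows and the others of the cluster. Only 4 of the 9 low genes had a window.

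The 9 genes of the run were ZNF208, ZNF257, ZNF676, ZNF729, ZNF98, ZNF492, ZNF99, ZNF723 and ZNF728, in this order along chr19:21932958-23003176. The run was chosen after its values were seen, so its low level is a description. ZNF208, the gene with the most fingers in the set at 36, had 4, 6 and 4 reads in replicates 1, 2 and 3. ZNF99 had 5, 9 and 8 reads, the most of any gene in the run, and a mean of 0.360 ± 0.108 TPM (SD, n = 3). ZNF257 had 5, 0 and 2 reads. In all 3 replicates the 9 genes stayed in this range, with 19, 26 and 22 reads in sum over the run. ZNF729, with 34 fingers, and ZNF723 had 1 read each over the 3 replicates, and ZNF676 and ZNF728 had 2 each. ZNF98 and ZNF492 had 8 and 10 reads. At such counts the replicates cannot rank the 9 genes among themselves.

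The genes on both sides of the run were transcribed. ZNF43, which ends 80.8 kb before it, had 956, 1134 and 864 reads and 43.7 ± 1.30 TPM (SD, n = 3). ZNF730, which starts 72.0 kb after it, had 583, 628 and 484 reads and 66.8 ± 2.57 TPM. The change between neighbours was therefore from over 40 TPM to below 1 TPM at both ends, in every replicate. The 21 genes of the cluster before the run had a median of 27.5 TPM and none below 7.10 TPM, and the 7 genes after it had a median of 29.8 TPM and none below 8.82 TPM. The 28 transcribed genes held 14723, 17297 and 12114 reads in the 3 replicates.

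In exonic GC content and finger number the low genes were much like the others. Their exonic GC content ran from 34.9% to 40.6%, within the 33.9% to 45.4% of the other 28 genes. Their exon length was shorter, with a median of 4246 bases against 6557.5, and ran from 1865 to 11907 bases against 2963 to 14132. Their finger numbers ran from 11 to 36 against 5 to 31, with ZNF208 and ZNF729 past that range, and a KRAB box was called in 7 of 9 against 27 of 28. ZNF676 and ZNF492 were the low genes without a KRAB call, which was read from 1 coding sequence per gene. The share of exonic 50-base words found once in the genome had a median of 83.9% in the low genes and 92.5% in the others. It was 52.5% for ZNF98 and 53.4% for ZNF492, near-identical copies that shared 1230 such words, so reads from either could have been left uncounted or counted on the wrong copy. With unique 50-base words in place of length, all 9 genes stayed below 1 TPM, with ZNF98 highest at 0.696 TPM. GENCODE lists 47 other genes wholly inside the run, 33 of them pseudogenes and 11 long noncoding RNAs. Of these 47 genes, 42 had no read in any replicate, where the share without a read was 40.8% over all matched genes. By type, 30 of the 33 pseudogenes had none (65.4% of all pseudogenes) and 9 of the 11 long noncoding RNAs (37.4% of all). The most reads on any was 17, and 3 of the genes passed 1 TPM, with a highest value of 3.13 TPM from 6 reads. No protein-coding gene outside the set lies wholly inside it.

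**Figure D1:**
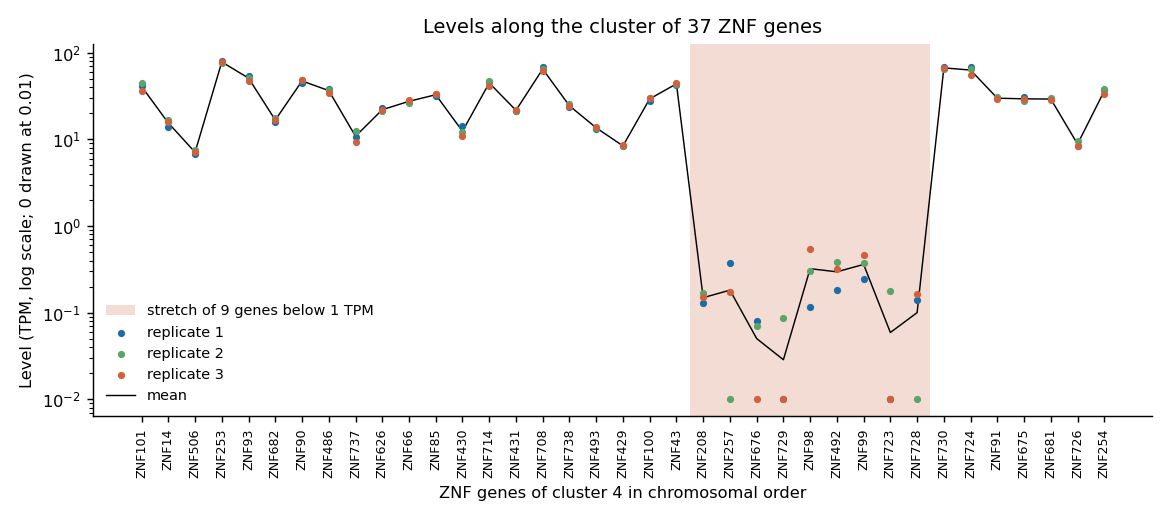
TPM (log scale) of the 37 ZNF genes of cluster 4 in chromosomal order, with a point for each of 3 replicates and a line for the mean. The 9 shaded genes lie below 1 TPM in every replicate, and the 28 others between 7.10 and 78.1 TPM in the mean.

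As a set, the ZNF genes of chromosome 19 were transcribed at moderate levels, and few were silent. At or above 1 TPM were 225 of 246 genes (91.5%), where the share over all protein-coding genes was 67.4%. It was 64.5% over the 1213 other protein-coding genes of chromosome 19 and 87.4% over the 262 ZNF genes of other chromosomes. The set had a median of 10.5 TPM with quartiles of 3.66 and 21.9 TPM. All protein-coding genes had a median of 7.10 TPM with quartiles of 0.361 and 33.0 TPM, the ZNF genes of other chromosomes a median of 12.996 TPM, and other genes of chromosome 19 a median of 4.41 TPM. The medians of the set in the replicates were 9.95, 10.4 and 10.7 TPM. The set thus had its middle above that of all genes and its upper quartile below theirs. The comparison is descriptive, since genes are not replicates.

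The study's scheme calls genes below 0.01 TPM nonexpressed and divides the rest into 3 quantiles, which here fell at 3.35 and 26.96 TPM. It was applied here to TPM made from the counts, with the quantiles taken over protein-coding genes. The study computed its abundances with Cufflinks, so its own classes may differ. In the set, 1 gene was nonexpressed, 53 were low, 145 were medium and 47 were high. The first of these counts rests on single reads: it was 5 without replicate 2, 2 without replicate 1 and 6 with the median of the replicates. Medium genes were 58.9% of the set against 28.8% of all protein-coding genes. High genes were 19.1% against 28.8%, low genes 21.5% against 28.8%, and nonexpressed genes 0.407% against 13.6%. The ZNF genes of other chromosomes had a similar profile with 56.1% medium and 24.4% high genes. ZNF541, a protein of a histone deacetylase complex of meiotic germ cells, was the gene without a read in any replicate. A count of 0 allows up to 3 reads over the replicates, which for ZNF541 is 0.0779 TPM, and such limits cover counting error only. Over all protein-coding genes 13.5% had no read.

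**Figure D2:**
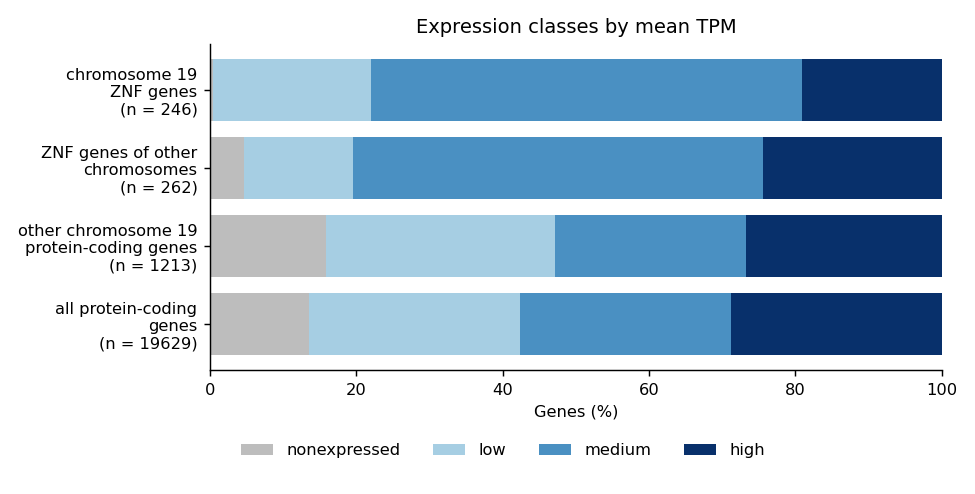
Percent of genes in each expression class by mean TPM, for the ZNF genes of chromosome 19, ZNF genes of other chromosomes, other protein-coding genes of chromosome 19 and all protein-coding genes. The medium class holds 58.9% of the first set and 28.8% of all protein-coding genes.

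The 246 genes are 1.25% of protein-coding genes and took 0.597%, 0.607% and 0.602% of the counted reads in the 3 replicates, a mean of 0.602 ± 0.00504% (SD, n = 3). These were 62001, 72962 and 52107 reads. At least 1 read was counted on 241, 242 and 238 of the genes, and 236 had a read in every replicate. The median gene had 405 reads over the 3 replicates, and 145 genes had at least 300. A pair of genes, ZNF121 and ZNF146, held 11.1% of all reads on the set.

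ZNF121 and ZNF146 had the highest levels and were the genes above 100 TPM. ZNF121 (ENSG00000197961, chr19:9560329-9584504), a protein of 9 fingers without a KRAB call, had 4519, 5431 and 3759 reads and 240, 248 and 234 TPM in replicates 1, 2 and 3. ZNF146 (ENSG00000167635, chr19:36214602-36238771), also called OZF, consists almost only of its 10 fingers and had 2374, 2754 and 1882 reads, or 220, 220 and 205 TPM. Their replicate values did not overlap with each other or with those of the next gene. ZNF480 was the highest gene with a KRAB box, at 80.9, 87.7 and 86.8 TPM. It was followed by ZNF253 at 78.1 ± 1.92 TPM (SD, n = 3), ZNF581 at 73.5 ± 5.62 TPM, ZNF460 at 73.0 ± 3.53 TPM, ZNF134 at 69.0 ± 2.21 TPM, ZNF730 at 66.8 ± 2.57 TPM, ZNF708 at 64.7 ± 3.36 TPM and ZNF724 at 63.0 ± 6.79 TPM. From ZNF253 to ZNF724 the replicate values of each gene overlapped with those of the next, so that the replicates do not separate such neighbours. ZNF724 shares 44.7% of its exon length with another protein-coding gene of the same strand, which had 93 reads. ZNF460 shares 24.6% with a gene of the opposite strand that had 822 reads, and whether the counting kept strands apart is not given. ZNF253, ZNF708, ZNF730 and ZNF724 belong to the cluster that holds the low run.

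**Figure D3:**
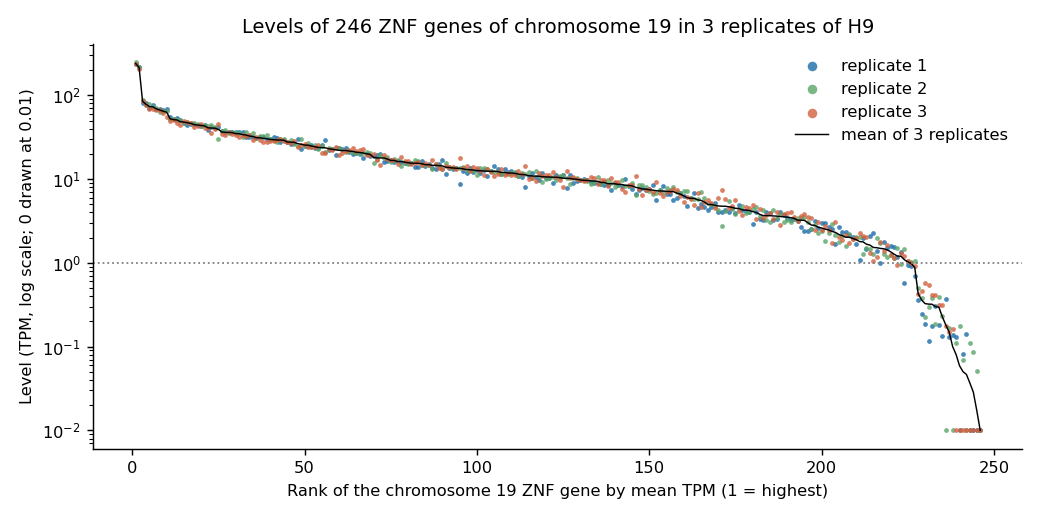
TPM (log scale) of the 246 ZNF genes of chromosome 19 ranked by their mean, with a point for each of 3 replicates and a line for the mean; the dotted line marks 1 TPM. ZNF121 and ZNF146 stand at 240 and 215 TPM, and 21 genes lie below 1 TPM.

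Below 1 TPM lay 21 genes, 9 of them in the low run and 12 elsewhere. Of the 12, only ZNF528 and ZNF534 were neighbours in the order of the set. ZNF534, known to bind the endogenous retrovirus HERV-H, and ZNF560 had 1 read each over the replicates, and ZNF229 and ZNF177 had 2 each. ZNF177 shares 90.6% of its exon length with the readthrough gene ZNF559-ZNF177, which had 10 reads, and its own count is uncertain. ZNF709 had 10 reads and shares 76.6% of its exon length with another protein-coding gene on the same strand, which had 0. ZNF540 had 11 reads, ZNF667 had 20, ZNF536 had 25 and ZNF528 had 29. ZNF888 and ZNF568 lay just under the threshold at 0.883 ± 0.177 and 0.984 ± 0.0511 TPM (SD, n = 3). A KRAB box was called in 17 of the 21, beside 211 of the 246 genes of the set.

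Proteins known to bind transposable elements were led by genes of the high class. Of 10 such genes, 8 were at or above 1 TPM, beside 91.5% of the set and 67.4% of all protein-coding genes. High were 5 of the 10, beside 19.1% and 28.8%, and their median was 26.3 TPM beside 10.5 TPM over the set and 7.10 TPM over all protein-coding genes. ZNF91, which represses SVA elements, had 30.2, 30.4 and 28.8 TPM, and ZNF93, which represses LINE-1 elements, had 54.3, 50.8 and 47.4 TPM. ZNF808, which binds MER11 elements, had 45.9, 46.7 and 46.4 TPM. These 3 genes had every replicate above the upper quartile of the set. ZNF649 and ZNF765, which bind LINE-1, had 31.2 ± 1.74 and 15.5 ± 0.118 TPM (SD, n = 3), and ZNF611, which binds SVA, had 22.7 ± 0.497 TPM. ZNF587 and ZNF417, near-identical genes whose proteins bind HERV-K, had 51.4 ± 0.761 and 8.65 ± 1.13 TPM. They shared 1597 exonic 50-base words, 22.3% of those of ZNF587 and 32.4% of those of ZNF417, so the counting could have split reads between them. The remaining genes were ZNF676, with 2 reads over the replicates, and ZNF534, known to bind HERV-H, with 1 read.

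Genes listed for chromatin or single-gene targets, a known partner or imprinting lay mostly in the middle of the set. Of 7 genes, 6 were medium, beside 58.9% of the set and 28.8% of all protein-coding genes, and 1 was low, with a median of 9.48 TPM. ZNF274, which brings SETDB1 to the 3′ ends of ZNF genes, had 13.5, 13.9 and 13.9 TPM. ZNF331, an imprinted gene, had 18, 20.7 and 22.8 TPM. ZNF568, whose mouse counterpart represses a placental promoter of Igf2, had 0.929, 1.03 and 0.993 TPM, so that its replicates stood on both sides of 1 TPM. ZNF558 had 10.6 ± 0.488 TPM (SD, n = 3), ZNF224, a repressor of aldolase A, 9.48 ± 0.667 TPM, ZNF175 7.46 ± 0.209 TPM and ZNF350, a partner of BRCA1, 7.40 ± 0.934 TPM. Exons of ZNF224 share 42.4% of their length with a long noncoding RNA gene of the opposite strand, ZNF225-AS1.

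A list of 10 other C2H2 genes held both ends of the range. From ZNF146 at 215 TPM it ran to ZNF541 at 0, with 8 genes at or above 1 TPM (91.5% over the set, 67.4% over all protein-coding genes) and a median of 22.3 TPM. ZNF581 was second in the list at 73.5 TPM, and 24.9% of its exon length is shared with its neighbour ZNF580, which had 8.82 ± 1.42 TPM (SD, n = 3). ZNF787 had 42.2, 30.3 and 45.1 TPM, ZNF574 34.0 ± 2.59 TPM and ZNF507 31.2 ± 0.577 TPM. ZNF444 had 10.6 ± 0.637 TPM. ZNF296, a partner of KLF4 in reprogramming, had 8.698, 13.8 and 17.9 TPM and, at a CV of 34.3%, the widest relative spread of the list among genes above 1 TPM. ZNF536, a repressor of neuronal differentiation, had 5, 7 and 13 reads.

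Genes whose promoters are often methylated in tumours were transcribed at low to medium levels. All 5 were at or above 1 TPM, as were 91.5% of the set and 67.4% of all protein-coding genes. Low were 3 and medium 2, where low genes made up 21.5% of the set and 28.8% of all, and their median was 2.02 TPM. ZNF154 had 17.9 ± 1.69 TPM (SD, n = 3), the only one above the median of the set. ZNF671 had 9.64 ± 0.175 TPM, ZNF577 2.02 ± 0.375 TPM, ZNF382 1.90 ± 0.206 TPM and ZNF471 1.47 ± 0.254 TPM. Methylation was not measured in this series.

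Levels of genes with and without a KRAB box were close. The 211 genes with the box had a median of 10.4 TPM with quartiles of 3.67 and 21.5 TPM, and the 35 without it had a median of 10.5 TPM with quartiles of 3.42 and 28.7 TPM. At or above 1 TPM were 194 genes with the box and 31 without. High genes were 18.01% of those with the box and 25.7% of those without. They differed in base composition, with a median exonic GC content of 42.7% with the box and 58.9% without. Of the 35 genes without the box, the 21 with over 55% exonic GC had a median of 8.82 TPM and the 14 others a median of 14.1 TPM. A simpler letter pattern called the box in 166 genes, and with it the medians were 11.8 TPM with the box and 8.97 TPM without. The order of the 2 medians was not stable: the genes with the box had the higher median under 9 of 15 alternative settings, among them CPM, the longest transcript as length and leaving out replicate 3, and those without it under the other 6.

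Finger number, length and GC content showed little relation to level across the genes. Spearman's rho with mean TPM over the 246 genes was -0.04 for exonic GC content, 0.02 for exon length and -0.02 for finger number, as descriptions over genes that share libraries and ancestry. Genes of 1 to 5 fingers had a median of 10.6 TPM (n = 13), those of 6 to 10 fingers 10.1 TPM (n = 72), those of 11 to 15 fingers 10.2 TPM (n = 105), those of 16 to 20 fingers 10.5 TPM (n = 42) and those of 21 to 36 fingers 12.9 TPM (n = 14). Among the genes with the most fingers, ZNF208 and ZNF729 lay in the low run and ZNF91, with 31 fingers, had 29.8 TPM. ZNF428, with 1 finger, had 26.1 ± 3.66 TPM (SD, n = 3). ZNF681, the gene with the lowest exonic GC content at 33.9%, had 29.1 ± 0.789 TPM, and ZNF865, with the highest at 70.9%, had 8.80 ± 0.650 TPM.

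Levels also varied with position along the chromosome. Joining genes whose starts lay within 500 kb of each other gave 10 clusters of at least 5 genes, which held 232 of the 246 genes, and 14 genes lay outside them. Mean TPM of neighbouring genes of a cluster had a Spearman's rho of 0.36 over 222 pairs of neighbours, and of 0.33 over 212 pairs without the low run. Neighbours share ancestry and partly exons, and no test was made of it. Medians of the clusters ran from 4.48 TPM to 22.0 TPM.

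Cluster 4 (chr19:19668796-24129968, 37 genes), near the centromere, had the highest median at 22.0 TPM with the low run included, and 17 of its genes were high. In the replicates its median was 23.2, 21.5 and 22.1 TPM. Cluster 3 (chr19:11483427-12640098, 25 genes) had the lowest median at 4.48 TPM, with 4.06, 4.23 and 4.51 TPM in the replicates, and 1 high gene, ZNF69, at 44.2 ± 1.28 TPM (SD, n = 3). The replicate medians of these clusters did not overlap. ZNF709 was the lowest of cluster 3, and 5 of the 6 genes that share at least 50% of their exon length with another gene of the same strand lie in it, namely ZNF20, ZNF625, ZNF709, ZNF564 and ZNF490. Those 6 genes, the sixth being ZNF177, had levels of 0.0806 to 3.63 TPM, and the part of overlap in their low values was not tested.

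The clusters toward the long-arm end had intermediate medians. Cluster 8 (39 genes) had a median of 13.02 TPM and ran from ZNF534 at 0.0173 TPM to ZNF480 at 85.1 TPM. Cluster 10 (43 genes), the largest, had a median of 12.6 TPM, and all its genes were at or above 1 TPM, from ZNF547 at 1.80 ± 0.634 TPM (SD, n = 3) to ZNF460 at 73.0 TPM. Cluster 9 (16 genes) had a median of 8.39 TPM between ZNF667 at 0.301 TPM and ZNF581 at 73.5 TPM. It had the fewest KRAB genes for its size, 6 of 16, and a median exonic GC content of 60.4%. Cluster 7 (23 genes) had a median of 7.09 TPM and no high gene, with ZNF428 highest at 26.1 TPM and ZNF229 lowest at 0.0466 TPM. Cluster 6 (26 genes) had 8.36 TPM, between ZNF540 at 0.321 TPM and ZNF146 at 215 TPM.

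The smaller clusters had medians of 5.57 to 10.98 TPM. Cluster 1 (5 genes) had 5.57 TPM, from ZNF556 at 1.36 ± 0.192 TPM (SD, n = 3) to ZNF57 at 12.8 ± 0.817 TPM. Exons of ZNF57 share 75.2% of their length with a long noncoding RNA gene of the opposite strand, which had 36 reads. Cluster 2 (13 genes) had 10.98 TPM and held ZNF121 as its highest and ZNF560, at 0.0368 TPM, as its lowest gene. Cluster 5 (5 genes) had 10.4 TPM, from ZNF599 at 1.53 ± 0.642 TPM to ZNF302 at 22.3 ± 2.44 TPM.

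**Figure D4:**
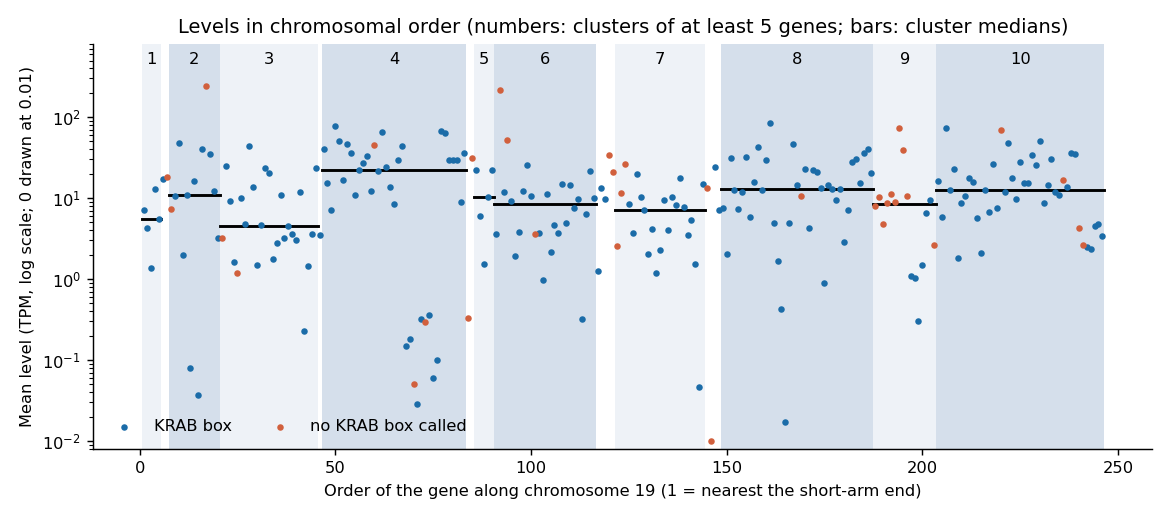
Mean TPM (log scale) of the 246 genes in their order along chromosome 19, coloured by the KRAB call, with numbered clusters of at least 5 genes shaded and a bar at each cluster's median. Cluster 4 has the highest median, 22.0 TPM, and the 9 genes of the low run below it.

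Near-identical copies limit some values. In the set, 34 genes had every exonic 50-base word unique in the genome, 202 had at least 90% unique and 11 had less than 80%. Those 11 genes, among them ZNF98 and ZNF492 of the low run, had a median of 4.60 TPM beside 10.5 TPM for the 235 others. Over all 246 genes, Spearman's rho of mean TPM with the unique share was -0.07, so the level showed little relation to it. The pair that shared most words was ZNF814 and ZNF587, with 2296, but their exons overlap on opposite strands over 2443 bases. Their levels were 25.5 ± 0.770 and 51.4 ± 0.761 TPM (SD, n = 3). ZNF324 and ZNF446 shared 1371 words, likewise from overlapping exons, and had 4.74 ± 0.863 and 3.40 ± 0.0863 TPM. ZNF585A and ZNF585B shared 1149 words at separate positions and had 2.18 ± 0.480 and 4.60 ± 0.215 TPM. Whether the counting placed, shared or dropped reads that fit several copies is not given in the sources used here, so the levels of these genes are uncertain.

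The spread between replicates was measured per gene and over the set. The coefficient of variation (CV) of TPM had a median of 8.60% over the genes with a read, and 5.77% over the 145 genes with at least 300 reads. By class the median CV was 22.8% for low, 8.37% for medium and 4.84% for high genes of the set, beside 37.9%, 8.41% and 5.03% for all protein-coding genes, whose low genes had a median of 17 reads against 49 in the set. The biological coefficient of variation from the common dispersion of edgeR was 0.0422 for the 222 genes kept by its filter and 0.0584 for all protein-coding genes kept. Without replicate 3 these were 0.0231 and 0.0319. Of the genes with at least 300 reads, 3 had a CV above 20%. ZNF878 had 29.5, 20.9 and 20.5 TPM, with replicate 1 apart from the others. ZNF419 had 4.46, 5.78 and 6.75 TPM, and ZNF787 was low in replicate 2. ZNF283 had 9.98, 8.35 and 6.95 TPM and ZNF234 had 11.3, 11.3 and 8.12 TPM, both lowest in replicate 3.

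Replicate 3, the shallowest library, stood apart from the others in a way that followed GC content. Its log2 ratio to the mean of replicates 1 and 2, from CPM with TMM factors of edgeR, had a median of 0.01 over the 200 genes of the set with at least 100 reads and -0.01 over 11724 protein-coding genes. It was 0.00 for the 175 genes with a KRAB box and 0.14 for the 25 without, which have the higher GC content, and 0.14 for the 627 other genes of chromosome 19. Spearman's rho of the ratio with exonic GC content was 0.27 over the 200 genes and 0.40 over all protein-coding genes. ZNF296, with 67.4% exonic GC, had a log2 ratio of 0.68, among the highest. Single genes also departed from the trend. ZNF497, with 62.6%, had -0.29, and ZNF439, with 45.6%, had 0.52. ZNF234 had -0.46 at 44.1%, near the median of 43.4% over the 200 genes. The part of GC content in the spread of single genes was not tested.

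**Figure D5:**
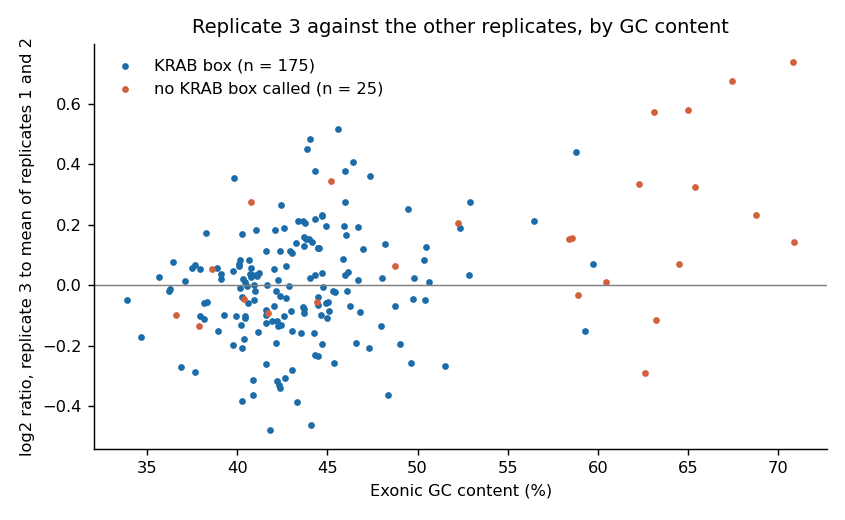
Log2 ratio of replicate 3 to the mean of replicates 1 and 2 against exonic GC content (%), with a point for each of 200 ZNF genes of chromosome 19 with at least 100 reads. The 25 genes without a KRAB call have a median ratio of 0.14 and the 175 with it 0.00.

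The cofactors through which KRAB proteins act lay in the upper part of the set's range or above it. All 12 cofactors of a list had more than the set's upper quartile, and their median was 82.9 TPM. In the high class were 11 of them, where that class held 28.8% of all protein-coding genes. PPHLN1 and TASOR lay below the upper quartile of all protein-coding genes, 33.0 TPM. TRIM28, which binds the KRAB box, had 942, 907 and 983 TPM, more than any ZNF gene of the chromosome in every replicate. SETDB1, the histone methyltransferase, had 40.4 ± 1.01 TPM (SD, n = 3), and its partner ATF7IP had 89.8 ± 1.52 TPM. The HP1 genes CBX5, CBX1 and CBX3 had 305, 287 and 212 TPM. TASOR, MPHOSPH8 and PPHLN1 of the HUSH complex had 32.5, 38.1 and 25.3 TPM, and MORC2, which works with it, had 42.7 TPM. The maintenance DNA methyltransferase DNMT1 and its partner UHRF1 had 76.0 and 116 TPM.

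The label of the cells was checked against markers. The 8 pluripotency genes examined ran from 259 TPM for SALL4 to 2576 TPM for LIN28A, all in the high class. Of 14 markers of neural, mesodermal, endodermal, extraembryonic or fibroblast cells, 12 were low or nonexpressed and the collagen genes COL1A1 and COL1A2 were medium at 14.6 and 25.6 TPM. DCN, a fibroblast marker, had 0.0985 TPM and CDX2 had no read.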

How the data were processed

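The authors trimmed reads with Trim Galore 0.4.4, aligned them to GRCh38 with TopHat2 2.1.1, and deposited whole-number read counts per Ensembl gene without normalization. Cufflinks 2.2.1 is also named. How reads were counted (tool, annotation, strand, multiply aligned reads) is not given in the sources used here. Every row names a gene.

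Counts were joined to GENCODE release 44 (98.1% of identifiers; unmatched genes held 0.273% to 0.294% of counts), divided by union exon length and scaled to TPM over matched genes. Fingers (C2H2 spacing) and KRAB boxes (HMMER 3.4 profile, E-value limit 0.001) were called in coding sequences translated from GENCODE, 1 per gene, where a table of RefSeq proteins had been planned. Promoter windows are from RefSeq; 216 of 246 genes had one. Dispersion and TMM factors came from edgeR 4.0.16 (R 4.3.3) with an intercept-only design, and size factors from DESeq2 1.42.0. Python 3.11.15, numpy 2.4.6, pandas 2.3.3, Biopython 1.88 and matplotlib 3.10.9 were used. The steps were tested on simulated counts.

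The genes, lists and tests were chosen with earlier results of these data known. Genes were named from lists of known roles, the 10 highest, the 5 highest with a KRAB box, those without reads, the 5 largest CVs at 300 reads or more, the highest and lowest per cluster, the 5 pairs sharing most words, and the extremes of finger number and GC content. Other names were chosen after their values were seen. Totals of 10390984, 12024802 and 8655155 counts limit precision, 1 read being worth about 0.0694, 0.0597 and 0.0814 TPM for a gene of the set. The spread between replicates may be technical.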

Additional observations from a re-analysis of the deposited data

How the results depend on the processing

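Of 105 values recomputed under alternatives, 73 stayed within a set limit. This limit was the spread between replicates, or 1.5 times for counts of genes or clusters and for the biological coefficient of variation. The number of ZNF genes at or above 1 TPM, 225 as reported, stayed at 222 to 227 under most alternatives, a threshold of 0.5 TPM included. It was 208 at a threshold of 2 TPM, and 167 among the 184 genes sharing under 10% of their exon length. The number of clusters, 10 as reported, was 12 at a gap of 250 kb and 9 at 1 Mb. All were within 1.5 times, a limit that a count of 225 out of 246 genes could not pass upward. The number below 0.01 TPM, 1 as reported, was 5 and 10 with counts thinned to 50% and 10%, 6 with the median of replicates, 8 below 0.1 TPM, and 0 among genes with at least 10 reads. The median of the set, 10.5 TPM, was 10.1 with counts thinned to 10%, 10.9 for genes sharing under 10% of their exon length, 11.8 and 12.2 with unique 50- and 100-base words as length, and 13.05 as CPM. For genes with a KRAB box these settings gave 10.2, 11.1, 11.8, 12.2 and 14.02, the longest transcript as length 10.6, at least 10 reads 10.8, and the plain KRAB pattern 11.8. Genes without the box had 12.2 with unique 100-base words, 8.40 as CPM and 8.97 with the plain pattern, and the order of both medians turned under 9 of 15 settings; the cause was not tested. The share of counts, 0.602%, was 0.636% of protein-coding counts outside the mitochondrial genome and 0.465% for genes sharing under 10% of exon length. The median log2 ratio of replicate 3, 0.01, was -0.0136 with DESeq2 size factors, 0.0295 with library size, -0.00927 at 300 reads and 0.0466 after GC correction, so its sign is not settled.

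With each replicate left out there were 1 to 5 genes below 0.01 TPM and a KRAB median of 10.2 to 10.4 TPM. With replicate 1 or 2 out of its reference, the ratio of replicate 3 ran from -0.00377 to 0.00955. The biological coefficient of variation ran from 0.0231 without replicate 3 to 0.0563 without replicate 2. The 9 genes of the low run stayed below 1 TPM in every such fit and with other lengths, CPM or a threshold of 0.5 TPM, alternatives chosen after seeing the data like those for dispersion. No paired analysis was possible because there is 1 condition. Depth limits the genes with fewer than 10 reads, 11 of the 21 below 1 TPM, whose order cannot be read.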
